A study of Mus musculus with 6 samples.

Results

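The antisense non-coding RNAs of libraries labelled as mouse satellite cells were read from the deposited table. They are genes typed there as antisense RNA, with a mean of at least 30 over the 6 libraries, outside chromosomes X and Y. This rule kept 86 of 14515 listed genes, out of 308 antisense rows. Members were thus chosen by their mean level, so their levels are a description. Differences between groups were no criterion, but a member near the limit could pass through the groups where it was high. The 3 members nearest the limit were Gm10390 with a mean of 30.3, BC037039 with 30.7 and B230369F24Rik with 30.8, and just outside it were AC133650.1 with 29.8, Gm26628 with 29.2 and Gm15777 with 29.0. All 86 members also passed the filter on low values used for testing, at least 10 in at least 2 libraries.

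RNA was sequenced in 2 libraries each labelled wild type (wt), mdx and mdx/Ripk3mKO. The mdx mouse carries a dystrophin mutation and models Duchenne muscular dystrophy, Ripk3 encodes a kinase required for necroptosis, and the labels do not spell out mKO, its promoter or a strain, age or number of animals. The sample labels describe quiescent satellite cells that were sorted and processed at once, 10000 to 20000 cells a library, while the series text describes wild-type cells grown for 72 hours below a transwell holding cells of the named genotype. Since these accounts differ, each group is named only by the label of its libraries.

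An antisense RNA is transcribed from the DNA strand opposite to another gene. Some act on neighbouring genes of the same chromosome: transcription of Airn silences the paternal copy of Igf2r, and Kcnq1ot1 silences a cluster of imprinted genes that includes the cell cycle inhibitor Cdkn1c. Others carry small RNAs, as Dnm3os and Mir133a-1hg do, and for most of the rest no function is established.

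Dnm3os lies within an intron of the dynamin gene Dnm3 and is the precursor of miR-199a and miR-214, a pair of microRNAs expressed in mesenchymal and muscle cells. The 4 mature sequences that fall within its span and strand are shown because they are the known product of this member. Capitals mark the seed, bases 2 to 8, through which a microRNA pairs with its targets, and no 2 of the 4 arms share a seed (RefSeq, GRCm38.p6, chr1:162217814-162217923 and chr1:162223368-162223477 for the hairpins, plus strand).
mmu-miR-199a-5p: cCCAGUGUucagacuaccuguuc
mmu-miR-199a-3p: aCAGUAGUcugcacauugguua
mmu-miR-214-5p: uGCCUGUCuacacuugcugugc
mmu-miR-214-3p: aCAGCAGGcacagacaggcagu

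A promoter window of 300 bases, 250 before to 50 after a start, was listed by RefSeq for 44 members, and for 25 of them the window held the start given in the deposited table. A pair of these is shown: Etohd2, which differed most between groups, because the start of the iron-sulfur assembly gene Isca1 lies 156 bases away on the other strand in the same window, and Kcnq1ot1, because it is the highest member with no listed partner. Capitals mark CCAAT and its reverse complement ATTGG, searched on both strands. Etohd2 (chr13:59769716-59770015, plus strand) held 2 and Kcnq1ot1 (chr7:143296498-143296797, minus strand) held 3 (RefSeq, GRCm38.p6).
Etohd2: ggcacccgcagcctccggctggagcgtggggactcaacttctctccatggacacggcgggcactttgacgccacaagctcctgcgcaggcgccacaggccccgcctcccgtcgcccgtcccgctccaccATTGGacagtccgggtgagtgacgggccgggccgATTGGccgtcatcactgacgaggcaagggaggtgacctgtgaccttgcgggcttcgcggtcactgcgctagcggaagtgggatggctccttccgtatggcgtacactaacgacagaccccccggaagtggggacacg
Kcnq1ot1: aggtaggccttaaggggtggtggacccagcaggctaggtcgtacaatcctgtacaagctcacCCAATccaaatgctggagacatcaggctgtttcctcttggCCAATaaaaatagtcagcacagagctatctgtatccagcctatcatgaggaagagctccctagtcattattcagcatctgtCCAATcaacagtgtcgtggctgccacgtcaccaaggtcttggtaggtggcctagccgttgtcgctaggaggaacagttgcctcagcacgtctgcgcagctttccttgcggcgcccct

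At least 1 CCAAT motif stood in 12 of the 25 member windows, against 37.4% of all 32851 promoters in the table. TATAAA or its reverse complement stood in 4 of 25 (13.6% of all promoters) and CAGCTG, the same on both strands, in 3 of 25 (16.3%). The Etohd2 window held 29 CG dinucleotides and that of Kcnq1ot1 held 9, where 10 of the 25 windows and 26.5% of all promoters reached 20. These are matches of letters and were not tested as sites.

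Values are given as scaled counts, gene read counts that were deposited after scaling and rounding. Their totals ran from 20611974 to 21037153 per library, and the divisors recovered from the values were 0.87 to 0.954 for wt and mdx and 1.2 and 1.206 for mdx/Ripk3mKO, so depth goes with that group. Pax7, which defines satellite cells, lay between 1755 and 2119. Myog (26795 to 35263) and Mki67 (13883 to 16904), genes of differentiating and dividing cells, were high in all 6 libraries. The word quiescent in the sample labels does not describe these values. In the satellite cell list 6 of 7 markers were listed, with Calcr not among the listed genes, and the sums were 29245 to 31049 in wt, 29330 to 29840 in mdx and 31160 to 31209 in mdx/Ripk3mKO. Of other cell types, 1 of 5 macrophage and 0 of 2 erythroid markers were listed, and the 4 endothelial markers summed to between 32 and 49. The pericyte or smooth muscle list (3 of 4 listed, Myh11 not) summed to 37186 to 53336, nearly all of it smooth muscle actin Acta2 at 35974 to 51960, with the pericyte marker Cspg4 at 1185 to 1773 and Rgs5 at 11 to 27. Those pericyte sums were 40590 to 51077 in wt, 37186 to 53336 in mdx, and 46451 to 50054 in mdx/Ripk3mKO, and overlapped between groups. Cspg4 alone had 1773 and 1602, 1354 and 1185, and 1735 and 1706 in the same order, lowest in the 2 mdx libraries. Rgs5 had 11 and 18, 22 and 27, and 20 and 17, highest in the 2 mdx libraries. The part of either marker in the results below was not tested. The 8 of 8 listed markers of activated or differentiating myoblasts summed to 280437 to 293257 in wt, 295993 to 334919 in mdx, and 262307 to 324496 in mdx/Ripk3mKO. Library 1 labelled mdx/Ripk3mKO stood apart, with Xist at 6918 against 164 to 666 elsewhere and a fibro-adipogenic sum (3 of 4 markers listed, Dcn not) of 348. That sum was 76 in the other mdx/Ripk3mKO library, 91 and 111 in wt and 149 and 165 in mdx, and its part in the results below was not tested. Of the 348, Col1a1 gave 286, against 21 to 96 in the other libraries. Pdgfra (24 to 32) and Ly6a (23 to 40) did not single out mdx/Ripk3mKO library 1. Ripk3 lay between 17 and 45 without separating the groups. Nothing read here says if strand was used in counting, so reads of a member and of its opposite-strand partner may not be told apart. In bulk libraries fewer cells of a type and less RNA per cell cannot be told apart either.

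Members were low and unequal. Their median mean was 56.9 scaled counts against 392.5 over all genes, 7 members had a mean of at least 200, 23 of at least 100 and 39 of under 50. Per kilobase of exon the median member reached 1.27 CPM (CPM being the share of the library total), the median of 79 partner genes 5.39 and that of 8383 protein-coding genes 6.0, where spans matched the GENCODE M21 annotation. The highest values per kilobase were those of Gm29237, inside the spectrin gene Sptbn1, at 14.9 CPM, and Gm11816, inside Clvs1, at 13.4. Summed over the 86 members, scaled counts made up 0.0411% and 0.0432% of the total in wt libraries, 0.0446% and 0.0434% in mdx libraries, and 0.0386% and 0.0397% in mdx/Ripk3mKO libraries. The share was thus lowest in the 2 mdx/Ripk3mKO libraries and highest in the 2 mdx libraries.

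Brip1os was the highest member (ENSMUSG00000085208, mm10 chr11:86201370-86304443). Its scaled counts were 1239 and 1328 in wt libraries, 1199 and 1322 in mdx libraries and 1254 and 1248 in mdx/Ripk3mKO libraries. All 6 values lay within a factor of 1.11, the narrowest range among the members. Brip1os starts 177 bases from the DNA repair helicase gene Brip1, runs across the whole of Ints2, a subunit of the Integrator complex, and ends within Med13, a Mediator kinase module gene. Its mean of 1265 exceeded the 485.7 of Brip1 and was 80.9% of the 1564 of Ints2.

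Atcayos came next, with 545 and 492 in wt libraries, 643 and 418 in mdx libraries and 530 and 526 in mdx/Ripk3mKO libraries. The mdx libraries enclosed all other values. It overlaps the brain gene Atcay (mean 48.3) at its 3′ end and the muscle gene Nmrk2, a nicotinamide riboside kinase (mean 184.7), and it stood at 1088% of Atcay. Atcay was at 53 and 51 in wt libraries, 67 and 53 in mdx libraries and 29 and 37 in mdx/Ripk3mKO libraries, lowest in the last group, whereas Atcayos did not follow.

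Gm15564 varied most between libraries. Its scaled counts were 253 and 199 in wt libraries, 447 and 120 in mdx libraries, and 107 and 275 in mdx/Ripk3mKO libraries, a range of 4.18-fold that lay within groups and not between them. It starts 85 bases from the nuclear import gene Kpna1, which stayed between 3252 and 3639, and overlaps the ADP-ribosyltransferase gene Parp9, at 31 to 45. The median member ranged over 1.54-fold. For the 49 members with a mean under 60 the median range was 1.59-fold, against 1.61-fold in 863 other genes of that level. For the 37 higher members it was 1.38-fold, against 1.16-fold in 10373 other genes with a mean of at least 60. That last set had no upper limit, so its genes were not matched in level to the members.

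The remaining members among the 12 highest were Kcnq1ot1, described with the imprinted loci below, Gm11816, Gt(ROSA)26Sor, Map2k3os, Gm26737, Rab10os, Airn, 6330403L08Rik and Gm16536. Gt(ROSA)26Sor, the transcript of the locus widely used for transgenes, had 222 and 265 in wt libraries, 239 and 242 in mdx libraries and 196 and 226 in mdx/Ripk3mKO libraries. Map2k3os, which starts 166 bases from the kinase gene Map2k3, had 225 and 223, 233 and 197, and 210 and 182 in the same order. For Rab10os, which meets the vesicle transport gene Rab10 at its 3′ end, the values were 175 and 198, 203 and 174, and 187 and 188. None of the 3 separated all its groups.

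**Figure D1:**
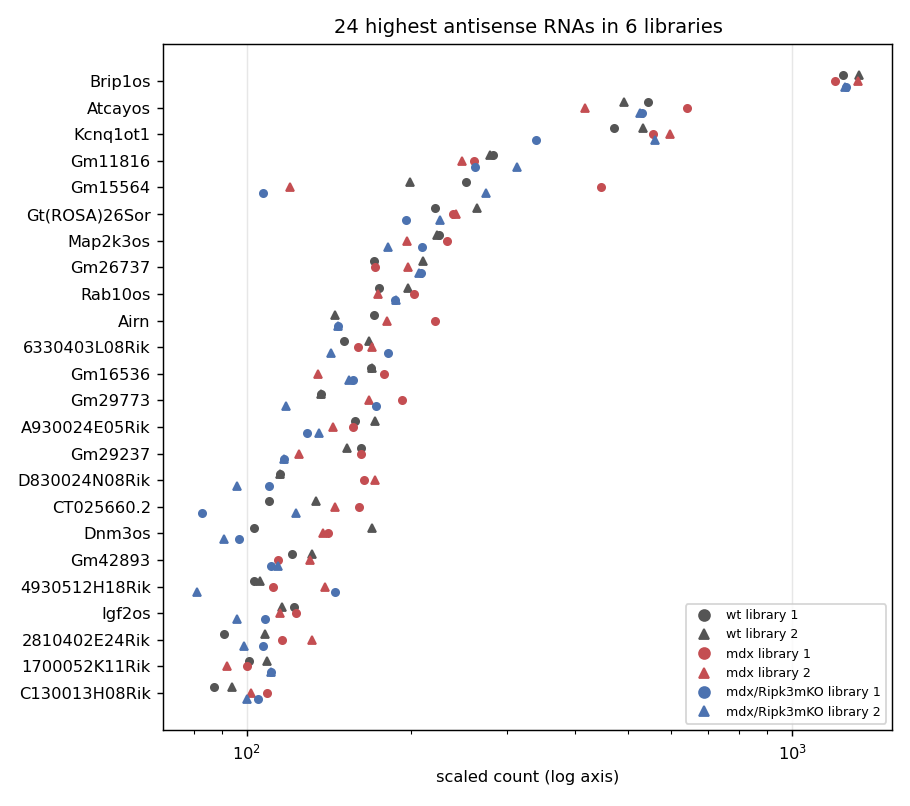
Scaled counts (log axis) of the 24 antisense RNAs with the highest means, 1 row each, with wt in grey, mdx in red and mdx/Ripk3mKO in blue, and circles for library 1 and triangles for library 2. Brip1os holds its 6 points within a factor of 1.11, while those of Gm15564 span 4.18-fold with both mdx/Ripk3mKO and both mdx libraries far apart.

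A listed gene overlapped on the other strand for 73 members, 65 of them with 1 partner and 8 with more, and 99 of the 101 pairs had a protein-coding partner. BC037039 alone, inside the clustered protocadherin gamma genes, gave 19 pairs, which share its reads. Counting the partner with the longest overlap, 26 members lay inside the partner, 25 met it at the 3′ ends, 21 at the 5′ ends, and 1, Brip1os, held the partner. Exons of both genes overlapped for 40 of the 46 pairs whose spans matched the annotation, by a median of 371.5 bases. In the other 6 pairs, Dnm3os with Dnm3 among them, no exon of 1 gene overlapped an exon of the other.

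In 64 of 73 cases the member was lower than its partner. The median member reached 6.27% of the partner's scaled count, with 2.76% for members inside, 5.30% for those meeting at the 5′ ends and 10.4% for those meeting at the 3′ ends. Selection by level limits how low this percentage can go for low partners. Lowest in relation to the partner were Igf2os at 0.317% of Igf2, Myhas at 0.325% of Myh1, Gm12264 at 0.363% of Mprip, Gm31305 at 0.403% of Pde4dip, Gm15893 at 0.402% of the RNA-binding protein gene Msi2 and 4930513N10Rik at 0.434% of Cnot1, a subunit of the deadenylase complex.

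Members above their partner were 9. Besides Atcayos these included Gm15564 at 634% of Parp9, Gm26737 at 615% of the ubiquitin ligase gene Rnf26, Dnm3os at 398% of Dnm3, BC037039 at 263% of Pcdhga12 and Gm11816 at 256% of Clvs1. BC037039 overlaps 18 other protocadherin gamma genes, so its single ratio depends on which one is taken.

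**Figure D2:**
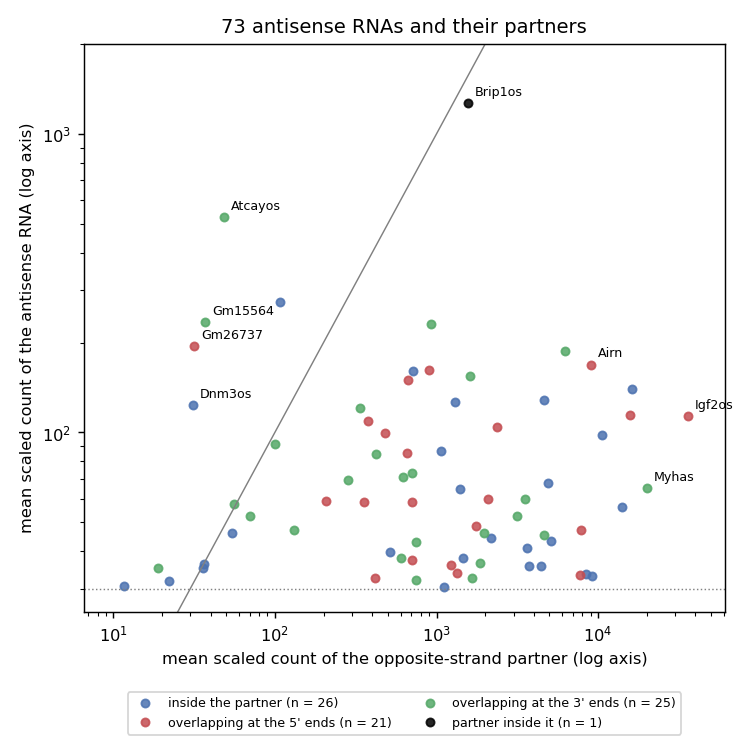
Mean scaled count of each of 73 antisense RNAs (vertical log axis) against that of its longest-overlap partner (horizontal log axis), coloured by how they overlap. Points below the grey line of equality are the 64 members lower than the partner, and the dotted line is the mean of 30 that members had to reach.

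In all, 14 members have the start of a gene on the other strand within 1000 bases, facing away from them, and 4 of these are among the 13 members with no listed overlap, leaving 9 with neither. They were Brip1os, Gm15564, Gt(ROSA)26Sor (with Setd5), Map2k3os, 2810001G20Rik (Cox10), 1500015A07Rik (Grpel2), Myhas (Myh4), 9430073C21Rik (Myh1), E130307A14Rik (Rev3l), Rab26os (Traf7), Gm15545 (Prmt1), Gm44777 (Rps13), Etohd2 (Isca1) and B230369F24Rik (Cox20). The neighbour had the higher mean in 13 of them, Brip1os being the exception.

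The skeletal myosin heavy chain cluster on chromosome 11 held 2 members. Myhas (chr11:67211256-67237573) starts 456 bases from Myh4, the fast IIb myosin. It overlaps the 3′ part of Myh1, the fast IIx myosin, by 13320 bases and ends within it. 9430073C21Rik (chr11:67195680-67199234) starts 818 bases from Myh1 and runs into the 3′ end of Myh2, the IIa myosin.

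Myhas had 54 and 59 scaled counts in wt libraries, 85 and 89 in mdx libraries, and 71 and 32 in mdx/Ripk3mKO libraries. 9430073C21Rik had 44 and 51, 75 and 74, and 61 and 41 in the same order. Both were highest in the 2 mdx libraries, and their lowest value was in mdx/Ripk3mKO library 2. Myh1 was also highest in the 2 mdx libraries and lowest in mdx/Ripk3mKO library 2, with 15341 and 18297 in wt libraries, 25820 and 27921 in mdx libraries, and 20849 and 11767 in mdx/Ripk3mKO libraries. Both held for Myh4 as well, with 297 and 415, 518 and 597, and 446 and 228. Myh2 had 41 and 56, 60 and 63, and 82 and 31, with its highest and lowest value both in mdx/Ripk3mKO.

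Against wt, mdx libraries were 0.61 ± 0.31 higher for Myhas on the log2(scaled count + 1) scale (moderated standard error, limma adjusted p = 0.805, n = 2 and 2) and 0.64 ± 0.23 higher for 9430073C21Rik (limma adjusted p = 0.65). The same difference was 0.68 ± 0.35 for Myh1 (limma adjusted p = 0.832) and 0.66 ± 0.42 for Myh4 (limma adjusted p = 0.856). None passed the threshold of 0.05 over all genes tested. Myhas and Myh1 overlap by 515 exonic bases and 9430073C21Rik and Myh2 by 237, and the part of shared reads in these values was not tested.

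Mir133a-1hg, the host RNA of a miR-133a copy within the span of the ubiquitin ligase gene Mib1 on chromosome 18, had 32 and 30 in wt libraries, 48 and 48 in mdx libraries, and 39 and 17 in mdx/Ripk3mKO libraries. Its order of libraries resembled that of Myhas. Mib1 itself stayed between 3439 and 3960. C130080G10Rik, whose nearest opposite-strand gene is the cardiac actin gene Actc1 at 1448 bases, had 31 and 29, 51 and 47, and 50 and 31, again with wt below mdx. Actc1 had 48001 and 39888, 59532 and 44498, and 51809 and 40394, with groups that overlapped. Chrna1os, 4512 bases from the acetylcholine receptor gene Chrna1, had 47 and 34, 34 and 51, and 37 and 33, and did not separate the groups.

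Some markers of differentiation moved with these members and others did not. Creatine kinase Ckm had 1742 and 1754, 2631 and 2452, and 2357 and 1420 in wt, mdx and mdx/Ripk3mKO, highest in the 2 mdx libraries and lowest in mdx/Ripk3mKO library 2. Embryonic myosin Myh3 had 128075 and 132937, 164134 and 145888, and 150566 and 110791, lowest in the same library. Myog, with 35263 and 29747, 34088 and 26795, and 34865 and 33030, was not ordered this way. Myod1 had 23226 and 21120, 19459 and 18636, and 22696 and 23595, lowest in the 2 mdx libraries. Acta1 had 75901 and 66402, 84259 and 72354, and 85379 and 65741. Mymk had 12010 and 10768, 12384 and 10732, and 12663 and 10382. Both Acta1 and Mymk had their highest and lowest value in mdx/Ripk3mKO. The part of these markers in the values of Myhas, 9430073C21Rik, Mir133a-1hg and C130080G10Rik was not tested.

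**Figure D3:**
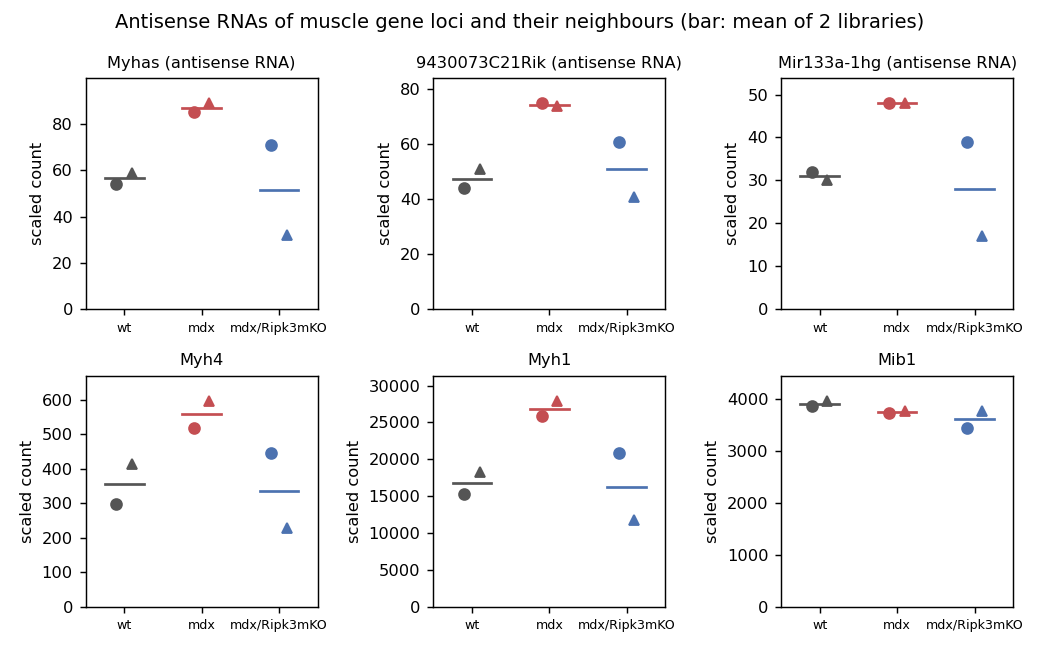
Scaled counts by group for 3 antisense RNAs of muscle gene loci (upper row) and for Myh4, Myh1 and Mib1 (lower row), with circles for library 1, triangles for library 2 and bars for group means, each axis starting at 0. The upper 3 and both myosins are highest in mdx and lie far apart within mdx/Ripk3mKO, and Mib1 stays between 3439 and 3960.

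Imprinted loci contributed 3 members. Kcnq1ot1 (chr7:143212155-143296549) had 472 and 533 in wt libraries, 555 and 597 in mdx libraries, and 339 and 561 in mdx/Ripk3mKO libraries. Only mdx/Ripk3mKO library 1 stood clearly below the others. Differences were 0.20 ± 0.27 for mdx against wt (limma adjusted p = 0.942) and -0.40 ± 0.27 for mdx/Ripk3mKO against mdx (limma adjusted p = 0.664). Cdkn1c, 161790 bases beyond its start, had 300 and 272, 486 and 488, and 230 and 236, and passed the threshold in both comparisons, higher in mdx than in wt by 0.77 ± 0.10 (limma adjusted p = 0.0182) and lower in mdx/Ripk3mKO than in mdx (-1.06 ± 0.10, limma adjusted p = 0.000326). Kcnq1ot1 and Cdkn1c thus shared the order of group means, and only Cdkn1c separated all its groups.

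Airn (chr17:12741311-12860122) had 171 and 145 in wt libraries, 222 and 181 in mdx libraries, and 147 and 147 in mdx/Ripk3mKO libraries. Both mdx values lay above all 4 others. Igf2r, the receptor that clears IGF2 from the cell surface, stayed between 8736 and 9304 and was not ordered by group. Airn differed by 0.35 ± 0.14 between mdx and wt (limma adjusted p = 0.711) and by -0.44 ± 0.14 between mdx/Ripk3mKO and mdx (limma adjusted p = 0.243). Igf2os, antisense to the growth factor gene Igf2, had 122 and 116, 123 and 115, and 108 and 96, lowest in mdx/Ripk3mKO by 0.22 ± 0.15 (limma adjusted p = 0.616 against mdx). Igf2 had 36181 and 33688, 38885 and 35963, and 38043 and 31858.

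Dnm3os, the source of the microRNAs printed above, had 103 and 170 in wt libraries, 141 and 138 in mdx libraries, and 97 and 91 in mdx/Ripk3mKO libraries. The mdx/Ripk3mKO libraries were the lowest of the 6, by 0.57 ± 0.20 against mdx (limma adjusted p = 0.301) and 0.49 ± 0.20 against wt (limma adjusted p = 1). Dnm3 had 46 and 26, 24 and 28, and 32 and 30. Gm15050, the 1 member antisense to a Hox gene as its longest partner, lies inside Hoxa3 and had 33 and 40, 56 and 49, and 47 and 51, while Hoxa3 had 73 and 47, 60 and 42, and 42 and 64.

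In mdx set against wt, no member passed the threshold after adjustment over 14077 tested genes (limma). Of all tested genes 0.0071% passed. Without adjustment 7 of 86 members had p under 0.05, all higher in mdx, where 3.44% of all tested genes were higher and 3.02% lower at that level. These 7 were D830024N08Rik, 9430073C21Rik, Srrm4os, C130080G10Rik, Airn, Gm29773 and Gm15050. The median difference of the 86 was 0.05 against -0.0022 over all genes, with 51 members higher (59.3%, against 49% of all tested genes). Without wt library 1 that median was -0.000514 and 44 members were lower. Other types were read among genes with a mean of at least 30 outside X and Y. Their median was 0.08 for lincRNAs, 0.04 for the provisional type TEC and 0.15 for sense-intronic RNAs. It was -0.0057 for protein-coding genes, and -0.08 to -0.0027 for processed transcripts, processed pseudogenes and RNAs of bidirectional promoters.

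D830024N08Rik, inside the fatty acid elongation gene Tecr (chr8:83576044-83585919), had the smallest p of these. Its scaled counts were 115 and 115 in wt libraries, 164 and 172 in mdx libraries, and 110 and 96 in mdx/Ripk3mKO libraries, so mdx stood clear of both other groups. The difference of mdx from wt was 0.54 ± 0.15 (95% interval 0.23 to 0.85, limma adjusted p = 0.461). Tecr had 4515 and 4372, 4795 and 4704, and 5071 and 4329, a difference of 0.10 ± 0.07.

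Srrm4os, antisense to the 3′ end of the neuronal splicing factor gene Srrm4, had 75 and 78 in wt libraries, 103 and 116 in mdx libraries, and 103 and 76 in mdx/Ripk3mKO libraries. The 2 mdx/Ripk3mKO libraries lay 1 at the level of mdx and 1 at that of wt. Srrm4 stayed between 85 and 107. Gm29773, at the 3′ end of the nuclear pore gene Nup133, had 137 and 137, 193 and 168, and 173 and 118. The members with the smallest p in the lower direction were Gm26801, with 47 and 60 in wt and 43 and 35 in mdx, Gm4610, Gm17201, 4933431E20Rik and B230369F24Rik, and none reached an unadjusted p of 0.05.

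In mdx/Ripk3mKO set against mdx, most members had lower values in the former. None passed the adjusted threshold (limma), which 0.206% of all tested genes passed. At an unadjusted p under 0.05 there were 15 members lower (17.4%) and 2 higher (2.33%), against 5.87% and 5.77% of all tested genes. Of the 15, Etohd2, Gm10516, Gm15893 and Gm15935 had both mdx/Ripk3mKO values under 30. They reached the mean of 30 only through the other libraries. The 2 libraries of each group did not overlap for 30 members that were lower in mdx/Ripk3mKO (34.9%, against 20.3% of all tested genes) and for 10 that were higher (11.6%, against 21%). The median difference was -0.20 over the members and -0.0021 over all genes, and 22 of 86 were higher (25.6%, against 49.2%).

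Other RNA types had medians on both sides of 0 in this comparison, among genes with a mean of at least 30 outside X and Y. The median was -0.19 for 130 lincRNAs, -0.22 for 82 transcripts of the provisional type TEC, and -0.48 for 11 sense-intronic RNAs. It was -0.09 for 70 processed transcripts, -0.08 for 12 RNAs of bidirectional promoters and 0.04 for 104 processed pseudogenes. It was 0.0073 for 10745 protein-coding genes and -0.05 for 618 protein-coding genes with a mean of 30 to 60. The 182 antisense RNAs that were tested but had a mean under 30 had a median of -0.22. No difference between these types was tested. The mdx/Ripk3mKO libraries were also the deepest, and depth and group cannot be told apart.

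Leaving out mdx/Ripk3mKO library 1 left 63 members lower with a median of -0.205, and leaving out library 2 left 61 lower with a median of -0.114. Without library 1, the difference from mdx was -1.42 for Myhas, -0.80 for D830024N08Rik and -1.45 for Mir133a-1hg. Without library 2, it was -0.76 for Kcnq1ot1. In these fits the lone library of the group is assumed to vary like the other groups, so differences only are given. The 2 mdx/Ripk3mKO libraries held 71 and 32 for Myhas and 110 and 96 for D830024N08Rik. They held 39 and 17 for Mir133a-1hg and 339 and 561 for Kcnq1ot1.

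Etohd2 had the largest difference. It had 48 and 41 in wt libraries, 38 and 37 in mdx libraries, and 15 and 17 in mdx/Ripk3mKO libraries, so that both of the last lay below every other library. The difference was -1.18 ± 0.26 against mdx (95% interval -1.74 to -0.62, limma adjusted p = 0.0911) and -1.42 ± 0.26 against wt (95% interval -1.98 to -0.86, limma adjusted p = 0.486). Isca1, whose start lies in the promoter window printed above, had 552 and 580, 614 and 642, and 633 and 588. Zcchc6, a terminal uridylyltransferase gene that Etohd2 overlaps by 3847 bases, had 1684 and 1690, 1756 and 1629, and 1568 and 1594. Neither neighbour was reduced to a like extent.

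D830024N08Rik was lower in mdx/Ripk3mKO than in mdx by 0.70 ± 0.15 (limma adjusted p = 0.0702) and near wt, -0.16 ± 0.15 (limma adjusted p = 1). Gm15935, inside the muscle phosphatase gene Dusp13 (chr14:21741565-21746632), had 43 and 51 in wt libraries, 51 and 44 in mdx libraries and 29 and 21 in mdx/Ripk3mKO libraries. All 4 wt and mdx values exceeded both others, with -0.91 ± 0.25 against mdx (limma adjusted p = 0.174). Dusp13 had 531 and 519, 566 and 542, and 538 and 401.

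CT025660.2, inside the adhesion gene Jam3, had 110 and 134, 161 and 145, and 83 and 123, with a difference of -0.59 ± 0.19 from mdx (limma adjusted p = 0.241). Gm45894, which runs into the 3′ end of the chromatin regulator gene Ankrd11, had 47 and 54, 53 and 52, and 32 and 34. The other members lower at an unadjusted p under 0.05 were Airn, Dnm3os, Myhas, 9430073C21Rik, Mir133a-1hg, 4833422C13Rik, Gm15893, Gm15816, E130307A14Rik and Gm10516.

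The members higher in mdx/Ripk3mKO at that level were Gm9869 and Gm26801. Gm9869, inside Uaca, had 44 and 36 in wt libraries, 28 and 43 in mdx libraries, and 66 and 49 in mdx/Ripk3mKO libraries, a difference from mdx of 0.70 ± 0.27 (limma adjusted p = 0.331). Uaca stayed between 2072 and 2299. Gm26801 had 47 and 60, 43 and 35, and 64 and 50. The next by p were Gm34866, Gm11816 and Gm42838, and for Gm11816, with 283 and 280, 261 and 248, and 262 and 313, the difference was 0.17 ± 0.11 (limma adjusted p = 0.594).

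**Figure D4:**
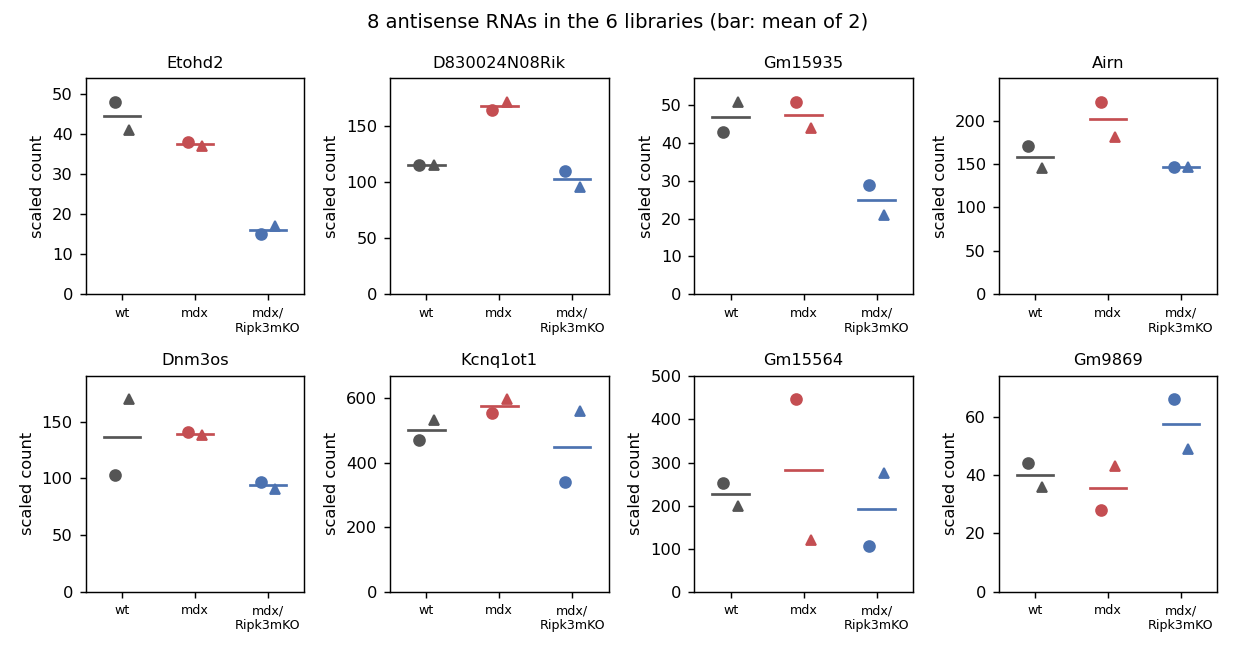
Scaled counts by group for 8 antisense RNAs named in the text, with circles for library 1, triangles for library 2 and bars for group means, each axis starting at 0. Etohd2 and Gm15935 are lowest in both mdx/Ripk3mKO libraries, D830024N08Rik and Airn are highest in both mdx libraries, and Gm15564 and Kcnq1ot1 show wide gaps within a group.

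In mdx/Ripk3mKO set against wt, no member passed after adjustment (limma), and 0% of all tested genes did. At an unadjusted p under 0.05 there were 10 members lower (11.6%) and 0 higher, against 2.09% and 1.24% of all tested genes. They were Etohd2, Gm15935, Gm29237, Gm45894, Gm44777, Dnm3os, Gm10516, A930024E05Rik, 4732440D04Rik and Gm15816. Of these, Etohd2, Gm15935 and Gm10516 reached the mean of 30 only through wt and mdx libraries. The median was -0.12 against 0.0012 over all genes, and 34 of 86 members were higher (39.5%, against 50.4%). Among the other types it was -0.095 for lincRNAs, -0.25 for TEC and -0.32 for sense-intronic RNAs. It was 0.0057 for protein-coding genes, and -0.08 to -0.0045 for processed transcripts, processed pseudogenes and RNAs of bidirectional promoters. The antisense RNAs with a mean under 30 had a median of -0.27. This comparison shares its libraries with the other 2, so its values are not separate evidence.

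Gm29237 had 162 and 153 in wt libraries, 162 and 125 in mdx libraries, and 117 and 117 in mdx/Ripk3mKO libraries, lower than wt by 0.43 ± 0.15 (limma adjusted p = 1), while its host Sptbn1 stayed between 15546 and 17380. Gm44777, 60 bases from the ribosomal protein gene Rps13, had 43 and 48, 33 and 39, and 22 and 35, and Rps13 stayed between 3364 and 3552. On the higher side the smallest p belonged to Gm9869, Gm15050, C130080G10Rik, Srrm4os and C130013H08Rik. For Gm9869 the difference was 0.50 ± 0.27 (limma adjusted p = 1).

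Member and partner were then set against each other in the same library as a log2 ratio, over all 844 opposite-strand pairs with both means at least 30, of which 93 held a member. In none of the 3 comparisons did a ratio of these 93 shift past the adjusted threshold (limma), where 0.237%, 0.237% and 0% of all pairs did for mdx against wt, mdx/Ripk3mKO against mdx and mdx/Ripk3mKO against wt. Without adjustment 5, 13 and 9 of the 93 had p under 0.05, against 6.75%, 8.18% and 4.15% of all pairs. BC037039 took part in 14 of the 93, which are not independent.

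The smallest p for mdx against wt belonged to Airn over Mas1, a receptor gene at its 3′ end, whose ratio was 0.92 ± 0.29 higher in mdx (limma adjusted p = 0.504). Mas1 had 49 and 38 in wt libraries, 33 and 25 in mdx libraries and 27 and 37 in mdx/Ripk3mKO libraries. The ratios of D830024N08Rik to Tecr, Gm15050 to Hoxa3, Airn to Igf2r and Srrm4os to Srrm4 followed, all higher in mdx, by 0.33 to 0.73.

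For mdx/Ripk3mKO against mdx the first was D830024N08Rik over Tecr, lower by 0.68 ± 0.16 (95% interval -1.03 to -0.34, limma adjusted p = 0.0797). Next came Etohd2 over Zcchc6 (-1.08 ± 0.31, limma adjusted p = 0.264), Atcayos over Atcay (0.87 ± 0.25, limma adjusted p = 0.27), CT025660.2 over Jam3 (-0.67 ± 0.21, limma adjusted p = 0.327) and Airn over Igf2r (-0.46 ± 0.16, limma adjusted p = 0.361). The ratio of Atcayos to Atcay differed through Atcay, at -0.84 ± 0.23, with Atcayos itself at 0.03 ± 0.20. For mdx/Ripk3mKO against wt the first was Etohd2 over Zcchc6 (-1.32 ± 0.31, limma adjusted p = 0.156), followed by Atcayos over Atcay, Gm15935 over Dusp13, Gm29237 over Sptbn1 and 1110002L01Rik over the kinesin gene Kif3c.

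Member and partner differed in the same direction in 50, 49 and 53 of the 93 pairs in the 3 comparisons (53.8%, 52.7% and 57%), against 53.8%, 56.4% and 53.4% of all 844 pairs. The member had the larger difference in 60, 69 and 76 of 93. Its median standard error was 0.23 on the log2 scale against 0.08 for the partner, and the part of precision in this count was not tested. At this depth a difference of the partner's size was below the error of the median member.

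**Figure D5:**
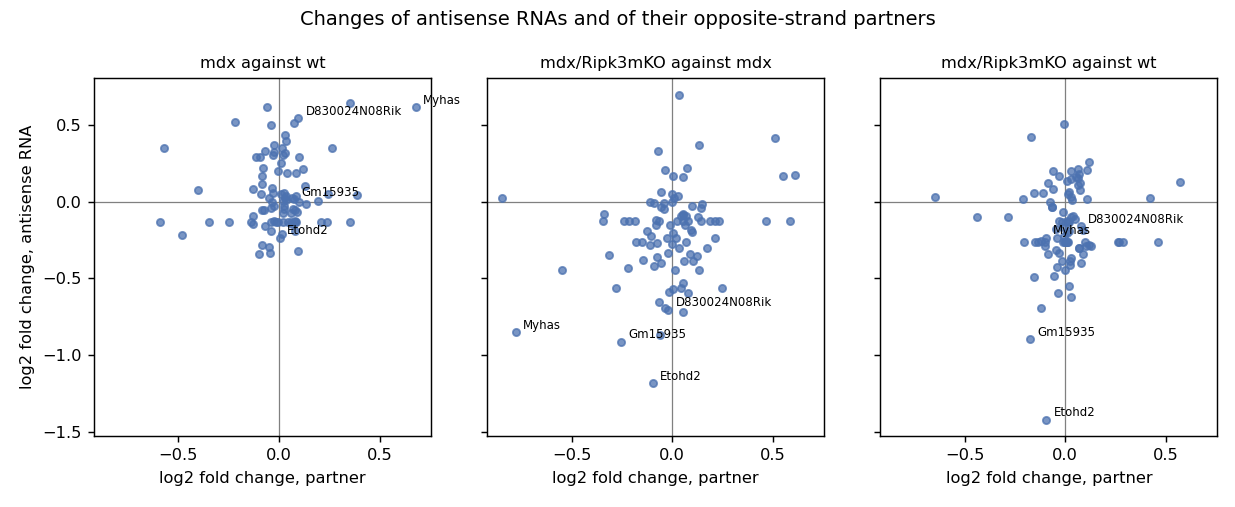
Log2 fold change of the antisense RNA (vertical axis) against that of its opposite-strand partner (horizontal axis) in 93 pairs, 1 panel per comparison, from the fit over all genes. In the middle panel Etohd2 and D830024N08Rik lie far below 0 while their partners are near 0, Gm15935 is low with Dusp13 at -0.25, and Myhas is low together with Myh1. The row of points at 1 height is BC037039 with its 14 partners.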

How the data were processed

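Trimmomatic 0.36, STAR 2.6.1d, featureCounts 1.6.3, DESeq2 1.18.1 and the mm10 build are named, without their roles, in the submitters' processing notes. The values were treated as a score: gene read counts as the authors scaled and rounded them, a reading that rests on the deposited values. Both mdx columns carry the same header and were used as mdx library 1 and 2 in column order, as names only. The labels do not say whether libraries came from separate animals, so p-values measure the spread between libraries, which may be technical. Libraries were made with version 2 of a Takara SMARTer low-input kit for stranded total RNA, per the labels.

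The 14077 genes that reached 10 in 2 or more libraries were tested with limma 3.58.1 (R 4.3.3, statmod 1.5.0) on log2(scaled count + 1), 1 fit over all 6 libraries, with a mean-variance trend, robust moderation and Benjamini-Hochberg adjustment over all genes at 0.05. Pairs were tested likewise on the log2 ratio of both genes, over 844 pairs, with the lower mean level as the trend covariate. Fold changes of low genes are understated on this scale. Both fits were tested on simulated counts. Overlaps used the coordinates in the deposited table, and exon lengths used GENCODE M21, where 75 of 86 members had the same span. Pseudocount, filter, moderation, scaling, groups fitted, overlap, mean minimum and left-out libraries were varied. Named members were the 12 highest, 5 per direction and comparison by p, 6 highest and 6 lowest ratios to the partner, 5 pairs per comparison, those at the limit, and those of lists of known antisense RNAs, muscle and Hox genes. The members, lists and rule were chosen with earlier results of these data known.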

Additional observations from a re-analysis of the deposited data

How the results depend on the processing

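The 0 members called in mdx against wt and in mdx/Ripk3mKO against wt stayed 0 under every alternative run. In mdx/Ripk3mKO against mdx 0 to 3 were called when a library was left out (3 without mdx/Ripk3mKO library 1, 1 without library 2) and 0 under the other alternatives. Over all genes, the 1 called in mdx against wt became 103 with the compared groups alone and 0 to 103 with a library left out. The 29 in mdx/Ripk3mKO against mdx became 1 without trend and robust moderation, 2 with the compared groups alone and 1 to 278 with a library left out, and the 0 in mdx/Ripk3mKO against wt became 0 to 20. Opposite-strand pairs called in mdx against wt numbered 2, 1 with an overlap of at least 200 bases, 0 without trend and robust moderation and 0 to 11 with a library left out. For mdx/Ripk3mKO against mdx they numbered 2, and 0 to 21 with a library left out, and for mdx/Ripk3mKO against wt 0, 1 without trend and robust moderation and 0 to 7. Srrm4os, higher in mdx/Ripk3mKO than in wt, turned to -0.0091 without mdx/Ripk3mKO library 1 and was 0.42 without library 2. D830024N08Rik was at -0.80 without mdx/Ripk3mKO library 1 in mdx/Ripk3mKO against mdx. The causes were not tested. Fits with a library left out also hold fewer libraries.

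Alternatives added after seeing the data counted lower members. In mdx/Ripk3mKO against mdx 57 were lower after quantile normalization (median -0.145) and 60 to 64 with a library left out (median -0.21 to -0.114). In mdx against wt 32 to 44 were lower, and the median changed sign without wt library 1. In mdx/Ripk3mKO against wt 49 to 61 were lower.

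The replicate block could be fitted only for mdx/Ripk3mKO against wt, whose columns carry numbers. It called 0 genes and 0 members. Deviations of same-numbered wt and mdx/Ripk3mKO libraries correlated at -0.0115 over genes. This single value cannot show whether these libraries share a preparation or an animal pairing. Values near 30 rest on few reads, and the median standard error of a member, 0.23 on the log2 scale, limits what could be detected.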
